A study of Mus musculus with 4 samples.

Results

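The stefin A genes of the mouse form an array of paralogs on chromosome 16, and their transcripts were followed here in 32Dcl3-Abl1ko cells growing with and without IL-3. The rule named 8 genes, Stfa2l1, Gm5483, Gm5416, Stfa1, BC117090, BC100530, Stfa2 and Stfa3, and all 8 were found by symbol among the 23756 genes counted. They had been picked with this contrast already known, so their own values in it are a description, and what a test across all genes returned for them is no support.

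32Dcl3 cells are mouse hematopoietic cells that ordinarily die without IL-3. Both groups are labelled Abl1 knockout. The gene was edited by CRISPR/Cas9 from lentiCRISPRv2 and single clones were picked, but the sources do not tie a clone or guide to a library. The groups were Abl1ko/IL3+ (replicates 1 and 2) and Abl1ko/IL3- (replicates 1 and 2), the question being how expression differed once the cells grew without the cytokine. The series describes the replicates as biological duplicates. Cells with intact Abl1 were not analysed here, so the edit itself was not compared. With IL-3, Abl1 itself had 1322 and 2222 counts, against 1544 and 2256 without it, so transcripts of the edited gene were still counted in all 4. Total counts ran from 48953174 to 60382588 per library, and a floor of 3 counts stood for 0.0497 to 0.0613 CPM (counts scaled to a fixed library size), which covers counting error only. The labels call the cells pre-B. The 7 pre-B markers that could be read summed to between 19.0 and 26.0 CPM, with Cd79b at 1044, 607, 689 and 877 counts and Rag1 at 0 in 3 of the 4 libraries. The 10 myeloid progenitor markers summed to between 1685 and 3586 CPM, unevenly divided. Mpo ran from 499.3 to 1879 CPM and Myb from 342.9 to 746.7, whereas Elane ran from 2.24 to 5.59 CPM and Kit from 0 to 4 counts.

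Stefins, or type 1 cystatins, are small inhibitors without a secretion signal that work in the cytosol. They bind tightly and reversibly across the active site of papain-like cysteine proteases such as cathepsins L, S and H, and so restrain proteases that have leaked from lysosomes or granules. In the mouse the stefin A branch has expanded by tandem duplication, and its transcripts are known from granulocytes of the bone marrow and from skin.

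The cluster spans 298582 bases in the GRCm38 build, chr16:36156811-36455392, and each of the 8 genes has the same start and end in the deposited table and in GENCODE M21. Stfa2l1 (36156811 to 36161953), Gm5483 (36184212 to 36188111), Gm5416 (36210403 to 36217788) and Stfa1 (36276951 to 36285373) lie on the plus strand. BC117090 (36321665 to 36334332), BC100530 (36359382 to 36367748), Stfa2 (36403992 to 36408457) and Stfa3 (36450537 to 36455392) lie on the minus strand. RefSeq calls Gm5483, Gm5416, BC117090 and BC100530 by the names Cstdc4, Csta3, Cstdc6 and Cstdc5. GENCODE classes all 8 as protein coding. BC100530 overlaps an antisense gene, Gm15845, and the other 7 overlap no annotated gene.

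Upstream sequence of the paralogs is shown as a description. The genes were chosen as a family of duplicated copies, so likeness of their upstream sequences is not independent of that choice. RefSeq promoter windows (GRCm38.p6, 250 bases before to 50 after the start) were matched for 7 of the 8 genes, BC117090 being the one without an entry. All 7 windows shared a word of 13 bases, printed in capitals below in the sense of each gene, with the bases that precede it. It begins 36 bases upstream of the RefSeq start in Stfa2l1, 32 in Gm5483, 80 in Gm5416, 33 in Stfa1, 12 in BC100530, 32 in Stfa2 and 34 in Stfa3. A shorter stretch is given for Stfa1, BC100530 and Stfa2, where the longer one would reach into a GENCODE exon of the gene. In these genes the printed stretch begins upstream of the RefSeq start but lies inside the GENCODE gene, downstream of its start.
Stfa2l1 (chr16:36156715-36156787, plus strand): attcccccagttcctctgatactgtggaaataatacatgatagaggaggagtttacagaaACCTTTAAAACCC
Gm5483 (chr16:36184120-36184192, plus strand): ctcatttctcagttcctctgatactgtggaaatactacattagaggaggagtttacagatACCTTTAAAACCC
Gm5416 (chr16:36210263-36210335, plus strand): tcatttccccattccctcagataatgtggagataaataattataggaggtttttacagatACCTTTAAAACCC
Stfa1 (chr16:36277098-36277127, plus strand): aggaggagctttcggatACCTTTAAAACCC
BC100530 (chr16:36367570-36367599, minus strand): aggaggagtttacagatACCTTTAAAACCC
Stfa2 (chr16:36408383-36408412, minus strand): aggaggagcttacagaaACCTTTAAAACCC
Stfa3 (chr16:36455414-36455486, minus strand): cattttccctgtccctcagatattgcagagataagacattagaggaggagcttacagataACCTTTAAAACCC

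The word ACCTTTAAAACCC was present, on either strand, in 9 of 32851 RefSeq promoter windows (0.0274%). Of these, 7 were fixed in advance, since the search sought the longest words common to the 7 stefin A windows. The other 2 were those of Cstdc3 and Gm7260, both on chromosome 16. A second word of 13 bases, GATCATTTCTTCT, was also common to the 7 windows and stood in 10 windows in all (0.0304%). Aligned in pairs, the 7 windows were between 68.7% and 96.4% identical over the aligned bases (median 82.5%, 21 pairs). Gapped positions were left out, which left between 231 and 297 of 300 bases per pair. The windows are thus alike well beyond the shared words. The shared word holds the letters TTTAAA, found in all 7 windows and in 13.2% of all windows, whereas TATAAA was in none of the 7 (13.6% of all). On either strand, TTNNGNAA, the pattern of C/EBP factors, matched 6 of the 7 windows and 40.7% of all windows. GAGGAA, the core of PU.1 sites, matched 6 and 28.3%, and AGATAA, the core of GATA sites, matched 4 and 11.2%. TTCNNNGAA, the pattern of STAT factors, matched Gm5483 (8.30% of all windows), and TGANTCA, that of AP-1, matched Stfa3 (7.81%). CCAAT matched 5 of the 7 and 37.4% of all windows, and GGGCGG matched none of the 7 (35.7%). These are matches of letters in a fixed window and say nothing of binding. Since the 7 windows are alike, their matches are not separate observations, and the shares over all windows are no test of enrichment.

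The coding sequences were compared next, since alike copies can exchange reads. Over the 28 pairs the aligned coding bases were between 77.9% and 98.0% identical (median 81.9%). Stfa1, BC117090 and BC100530 formed a close trio. Stfa1 and BC100530 were 98.0% identical, BC117090 and BC100530 96.2%, and Stfa1 and BC117090 94.5%. Stfa2l1 and Stfa2, at opposite ends of the array, were 96.5% identical. Gm5416 was nearest to BC100530 at 88.4%, and Gm5483 and Stfa3 reached no more than 82.7% and 84.7% with any other member.

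**Figure D1:**
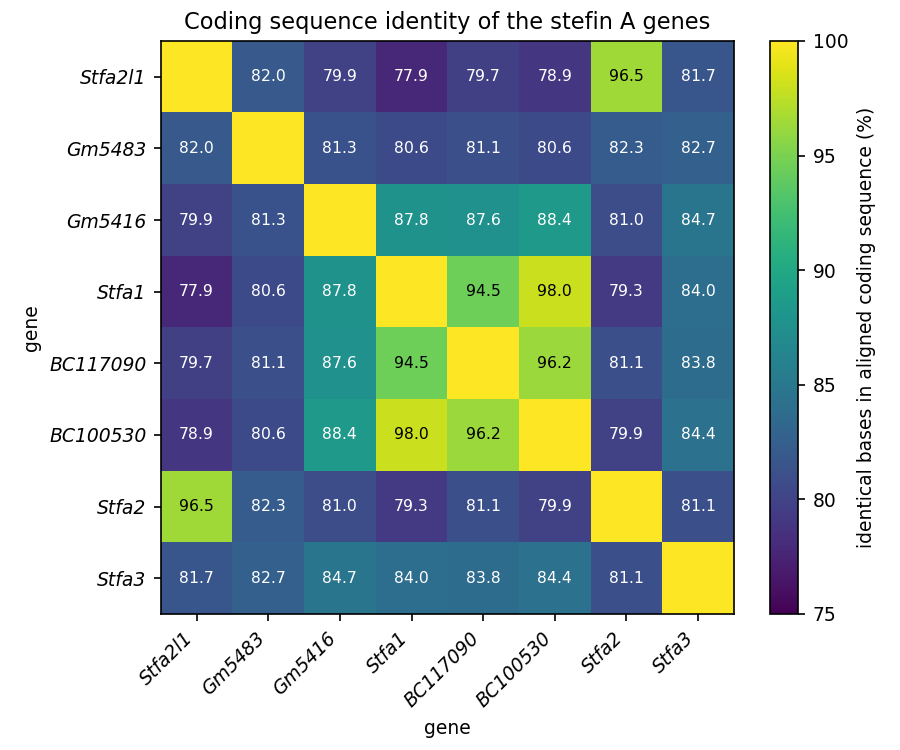
Percent of identical bases in pairwise alignments of the coding sequences of the 8 stefin A genes, in chromosomal order on both axes. Stfa1, BC117090 and BC100530 (94.5% to 98.0%) and the pair Stfa2l1 and Stfa2 (96.5%) stand out from the remaining pairs.

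Over whole transcripts, the share of windows of 50 bases that another annotated gene holds letter for letter was 36.2% in BC100530, 33.7% in BC117090, 24.6% in Stfa2l1, 22.5% in Stfa1, 15.9% in Stfa2 and 14.2% in Gm5483. It was 0% in Gm5416 and Stfa3. With windows of 100 bases the share was highest in BC100530 (15.6%) and BC117090 (13.5%), and it was 5.07% in Stfa1, 2.53% in Gm5483 and 0% in the other 4. Read length and the treatment of reads with several matches are not given in the sources used here. The shares above count any annotated gene, on either strand. Shared with another stefin A gene of the array were 33.7% of the 50-base windows in BC117090, 23.8% in BC100530 and 22.5% in Stfa1. This share was 16.8% in Stfa2l1, 14.7% in Stfa2 and 7.10% in Gm5483, which had no window in common with another member named by the rule. Counts of these genes are therefore uncertain as to the gene they came from, while Gm5416 and Stfa3 had no window shared with another gene.

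Stefin A transcripts were more abundant in both libraries without IL-3 than in either library with it. Over all 8 genes together, 404 and 95 counts were found in replicates 1 and 2 of Abl1ko/IL3+, against 5000 and 19612 in those of Abl1ko/IL3-. After TMM normalization these were 6.27 and 1.75 CPM with IL-3 against 104.5 and 337.9 CPM without it. The groups did not overlap, and the lower IL3- library stood 16.7-fold above the higher IL3+ library. The ratio of the group means was 55.2 (log2 5.79). On the log2 scale the summed CPM averaged 1.73 (SD 1.30, n = 2) with IL-3 and 7.55 (SD 1.20, n = 2) without it. Duplicates also differed from each other, since Abl1ko/IL3- replicate 2 stood 3.23-fold above replicate 1, and Abl1ko/IL3+ replicate 1 stood 3.59-fold above replicate 2. In bulk RNA, more cells making stefin A and more stefin A RNA per cell cannot be told apart.

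**Figure D2:**
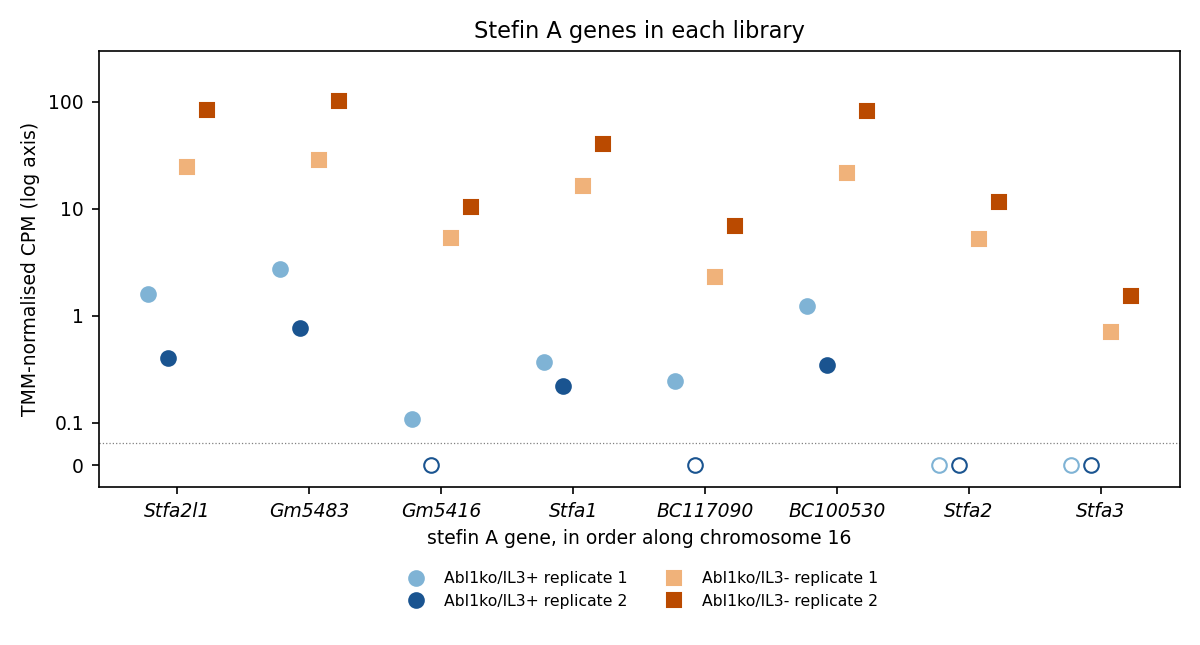
TMM-normalised CPM (log axis) of each stefin A gene in the 2 Abl1ko/IL3+ libraries (circles) and the 2 Abl1ko/IL3- libraries (squares), 1 point per library, with open points on the line marked 0 for libraries without a count. For all 8 genes both squares lie above both circles, from 9.34-fold (BC117090) to 49.1-fold (Gm5416) apart in the 6 genes counted with IL-3.

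Stfa2l1, a close copy of Stfa2 at the start of the array, had 102 and 22 counts with IL-3 (replicates 1 and 2, in this order throughout) against 1164 and 4844 without it. Its CPM went from 1.58 and 0.405 to 24.3 and 83.5. The lower library without IL-3 was 15.4-fold above the higher library with it, and the log2 fold change from edgeR was 5.75 (SE 1.06).

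Gm5483 (Cstdc4) gathered the most counts in every library, with 175 and 42 with IL-3 against 1360 and 5962 without it. In CPM these were 2.71 and 0.772 against 28.4 and 102.7, and the groups were 10.5-fold apart at their nearest libraries. Its log2 fold change was 5.23 (SE 1.02). It was thus the stefin A gene most easily counted in cells with IL-3, and its ratio of group means (37.6) was lower than those of Stfa2l1 (54.2) and BC100530 (64.8).

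BC100530 (Cstdc5) had 80 and 19 counts with IL-3 against 1044 and 4717 without it, or 1.24 and 0.349 against 21.8 and 81.3 CPM. The log2 fold change was 6.01 (SE 1.07) and the nearest libraries were 17.6-fold apart. The antisense gene Gm15845 that overlaps it had 0, 0, 0 and 9 counts. BC100530 also showed the widest gap between the duplicates without IL-3, replicate 2 standing 3.73-fold above replicate 1 in CPM.

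Stfa1, the copy nearest in coding sequence to BC100530, had 24 and 12 counts with IL-3 against 780 and 2324 without it. Its CPM went from 0.372 and 0.221 to 16.3 and 40.0. The duplicates with IL-3 were closer together than in the other members counted in both, and the nearest libraries of the groups were 43.8-fold apart. The log2 fold change was 6.55 (SE 0.76), the smallest standard error in the cluster.

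Gm5416 (Csta3), which shares no window of 50 bases with another gene, had 7 and 0 counts with IL-3 against 255 and 607 without it. This was 0.109 and 0 CPM against 5.33 and 10.5 CPM. It had the largest ratio of group means among the 6 genes counted with IL-3, at 145.4, and a log2 fold change of 7.07 (SE 1.39), but the IL3+ side of that ratio rested on the 7 counts of replicate 1.

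BC117090 (Cstdc6), the trio member with the fewest counts, had 16 and 0 counts with IL-3 against 111 and 403 without it. In CPM these were 0.248 and 0 against 2.32 and 6.94. Its groups were separated the least of the 6, by 9.34-fold at the nearest libraries, and its log2 fold change was 5.17 (SE 1.63).

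Stfa2 and Stfa3, the last genes of the array, had no count in either library with IL-3. Stfa2 had 252 and 666 counts without IL-3 (5.27 and 11.5 CPM), at least 95.4-fold higher without IL-3 against a floor of 3 counts per library. Stfa3 had 34 and 89 counts (0.710 and 1.53 CPM), at least 12.9-fold higher against the same floor. No window of 50 bases of Stfa3 is held by another annotated gene, while Stfa2 shares 14.7% of its windows with other copies of the array.

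All 8 genes passed the expression filter, which 16535 genes passed in all. Gm5416, BC117090, Stfa2 and Stfa3, at 0 counts in 1 or both libraries with IL-3, could pass it only through libraries without IL-3. Their passing thus depended on the contrast itself. Each of the 8 had both IL3- libraries above both IL3+ libraries. The same held for 19.4% of all genes tested. The fitted log2 fold changes of the 6 members counted with IL-3 ranked between 61 and 95 of 16535 from the top. No gene of 16535 passed an adjusted p of 0.05 by the quasi-likelihood test of edgeR after Benjamini-Hochberg adjustment (lowest adjusted p = 0.335), so 0 of the 8 members were called against a background of 0%. At an unadjusted p under 0.05 in edgeR all 8 were higher, against 2.56% of the genes tested, and 978 genes met that threshold in either direction. By DESeq2's adjusted p, 271 genes were called, all 8 members among them as higher, against 0.671% of genes called higher. Without Abl1ko/IL3- replicate 1, edgeR called 15 genes, 5 of the 8 members among them as higher (BC100530, Gm5483, Stfa1, Stfa2 and Stfa2l1), against 0.0665% of genes called higher. Since the members were chosen on this contrast, these counts show only how each procedure treated them.

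The division of stefin A counts among the copies was followed next. Gm5483 made up 43.3% of the summed counts in Abl1ko/IL3+ replicate 1 (95% Wilson interval 38.6 to 48.2) and 44.2% in replicate 2 (34.6 to 54.2). Without IL-3 it made up 27.2% (26.0 to 28.5) and 30.4% (29.8 to 31.0). These intervals cover counting error only, and those of the duplicates without IL-3 did not overlap each other either. Its share was lower in both libraries without IL-3 than in both with it, also as a share of the summed FPKM (17.6% and 19.9% against 9.49% and 11.1%).

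Of the summed counts, Stfa2l1 held 25.2% and 23.2% with IL-3 against 23.3% and 24.7% without it. Of the summed FPKM, however, it held 45.4% and 45.3% with IL-3 and 36.1% and 40.2% without, so that its share per length was lower in both libraries without IL-3. BC100530 stood at 19.8% and 20.0% with IL-3 against 20.9% and 24.1% without it. Stfa1 varied more between duplicates, with 5.94% and 12.6% against 15.6% and 11.8%, and its groups overlapped. Stfa2 made up 5.04% and 3.40% without IL-3 and had no count with it, where the intervals reached up to 0.942% in replicate 1 and 3.89% in replicate 2. The upper limit in replicate 2, which held 95 stefin A counts, lay above the 3.40%, so the absence of Stfa2 there was not distinguishable from its share in Abl1ko/IL3- replicate 2. Gm5416 had 1.73% and 0% with IL-3 against 5.10% and 3.10% without it. Gm5483, Stfa2l1 and BC100530 together held 88.4% and 87.4% of the counts with IL-3 against 71.4% and 79.2% without it.

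**Figure D3:**
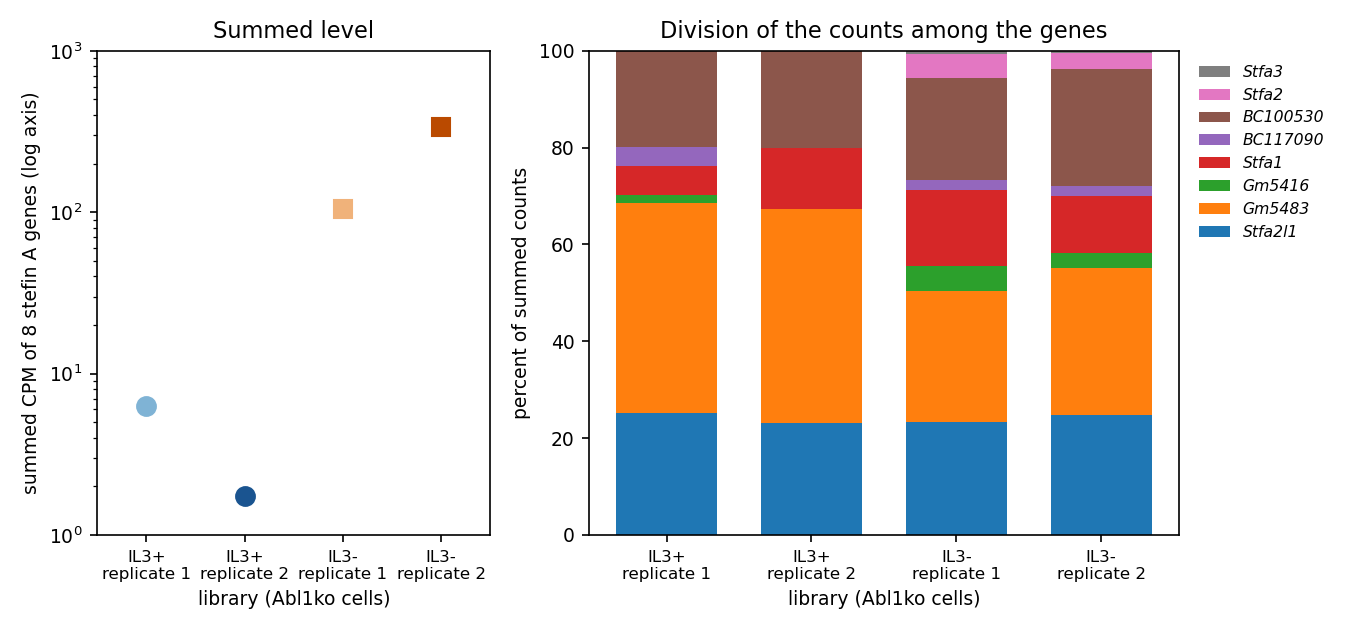
Left, summed CPM of the 8 stefin A genes in each library (log axis, 1 point per library, circles with IL-3 and squares without), at 6.27 and 1.75 with IL-3 against 104.5 and 337.9 without. Right, percent of each library's summed stefin A counts held by each gene, with Gm5483 at 43.3% and 44.2% with IL-3 and at 27.2% and 30.4% without it.

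Levels of different genes were compared on the deposited FPKM scale, which divides by gene length. Without IL-3 the order by mean FPKM was Stfa2l1 (49.6 and 184.3 in replicates 1 and 2), BC100530 (23.6 and 95.2), Stfa1 (19.6 and 52.2), Gm5483 (13.0 and 51.0), Gm5416 (15.5 and 32.9), Stfa2 (9.53 and 22.5), BC117090 (5.08 and 16.6) and Stfa3 (1.46 and 3.42). The ranges of neighbours in that order overlapped except between BC117090 and Stfa3. Within each replicate the order was the same apart from Gm5483 and Gm5416, which exchanged the fourth and the fifth place. Gm5483 led in counts but not in FPKM, and its annotated exons add up to 1862 bases against 419 in Stfa2l1. One of its annotated transcripts is 414 bases long and another 1859, so its FPKM depends on which length is used.

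With IL-3 the FPKM of Stfa2l1 was 3.60 and 0.740, that of BC100530 1.48 and 0.334, and that of Gm5483 1.40 and 0.324. Those of Stfa1 were 0.503 and 0.234. BC117090 had 0.604 and 0, and Gm5416 0.345 and 0. Stfa2l1 was therefore the highest on this scale in all 4 libraries. In Abl1ko/IL3- replicate 2 it exceeded 98.6% of the genes in the table, and in Abl1ko/IL3+ replicate 2 it exceeded 51.6%.

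One more stefin A gene lies inside the array without having been named by the rule. 2010005H15Rik, which RefSeq calls Csta2, is placed at chr16:36221468-36257444, between Gm5416 and Stfa1. It had 10 and 0 counts with IL-3 against 90 and 762 without it, or 0.155 and 0 against 1.88 and 13.1 CPM. Its log2 fold change was 6.51 (SE 1.78, adjusted p = 0.727 in edgeR), and its 2 IL3- libraries lay above both IL3+ libraries, as those of the 8 members did. It passed DESeq2's adjusted threshold and not edgeR's.

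The 28 other genes of the table within 500000 bases of the outermost members, 2010005H15Rik among them, served as neighbours. Of these, 17 were tested, 6 with a higher and 11 with a lower fitted level without IL-3. Their median log2 fold change was -0.09, beside -0.03 over all genes tested (0.38 for the neighbours without Abl1ko/IL3+ replicate 1), and none was called by edgeR in either direction, where no gene was. Apart from 2010005H15Rik, the neighbours with the largest changes at a mean CPM of 1 or more were Iqcb1, Dtx3l and Golgb1. Iqcb1, a ciliary protein gene, had 582 and 424 counts with IL-3 against 187 and 277 without it (log2 fold change -0.95, SE 0.45, adjusted p = 0.855 in edgeR). Dtx3l, a ubiquitin ligase gene, had 4955 and 1170 counts against 1140 and 1577, and Golgb1, coding for a Golgi protein, had 4552 and 785 against 973 and 1537. The groups did not overlap in Iqcb1 and overlapped in the other two. Apart from 2010005H15Rik, no tested neighbour had a fitted log2 fold change above 0.84.

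**Figure D4:**
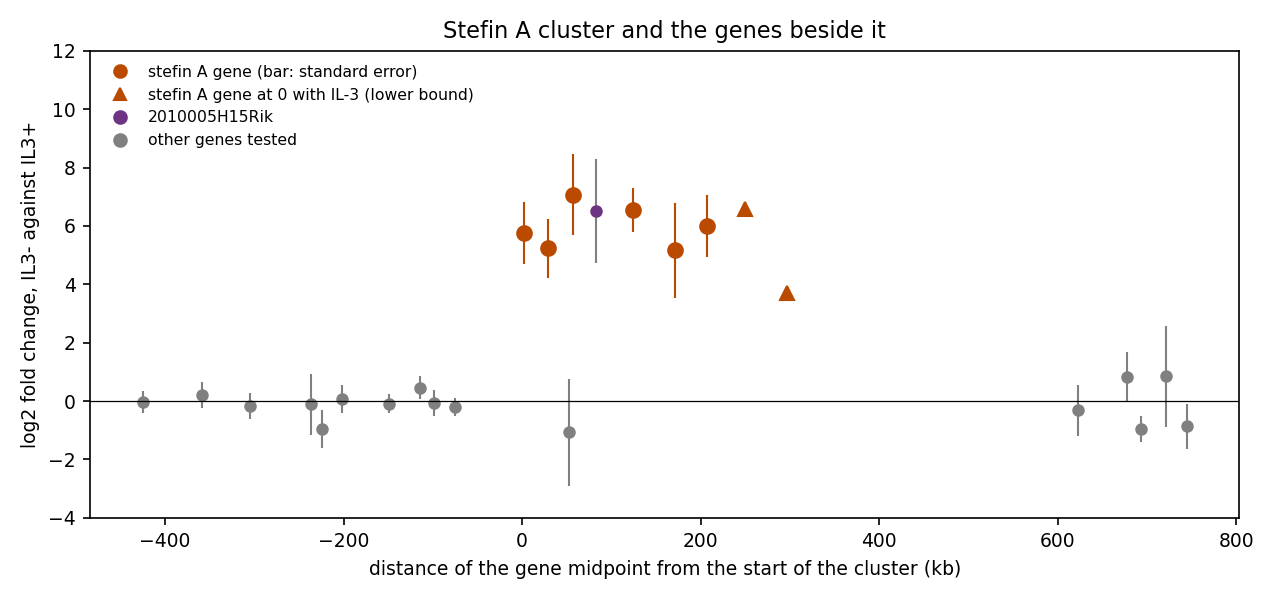
Log2 fold change (cells without IL-3 over cells with it) of the stefin A genes and of the tested genes beside them, by distance of the gene midpoint from the start of the cluster in kb. Bars are standard errors of the edgeR fit, and triangles are lower bounds for Stfa2 and Stfa3, which had no count with IL-3. Stefin A genes with a fitted value lie between 5.17 and 7.07, 2010005H15Rik lies at 6.51, and the neighbours have a median of -0.09.

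Of 25 symbols listed from the cystatin superfamily, 6 were in the table under those symbols. The list held fewer than 25 other genes. Its Csta3, Cstdc4, Cstdc5 and Cstdc6 are RefSeq names of members, and its Csta2 is 2010005H15Rik again. Of the 6, 4 were tested, 2 with a higher and 2 with a lower fitted level, with a median log2 fold change of 0.04. One of the higher genes was 2010005H15Rik of the array itself, and the 3 genes left without it were 1 higher and 2 lower, with a median of -0.39. edgeR called none of the 4 and DESeq2 called 1, 2010005H15Rik. Cstb, coding for stefin B, the widely expressed relative of stefin A, had 2073 and 3062 counts with IL-3 against 2163 and 4514 without it. Its groups overlapped, with a log2 fold change of 0.47 (SE 0.46, adjusted p = 0.935 in edgeR). Cst3, coding for the secreted cystatin C, had 9541 and 17812 counts against 9273 and 9890 (log2 fold change -0.39, SE 0.47). Cst7, coding for cystatin F of the endosomes and lysosomes of leukocytes, had 31753 and 21494 counts with IL-3 against 10067 and 14174 without it. Both Cst7 libraries without IL-3 were below both with it (log2 fold change -0.97, SE 0.33, adjusted p = 0.815 in edgeR).

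The tested genes of the protease list had log2 fold changes of at most 1.44 (Ctsk), below those of all fitted members. That limit does not cover Ctsf, Ctsh and Ctss, which failed the expression filter. Of the 11 papain-like cathepsins and legumain in the table, 8 were tested, 5 with a higher and 3 with a lower fitted level (median 0.18 on the log2 scale, but -0.27 without Abl1ko/IL3+ replicate 2 and -0.02 without Abl1ko/IL3- replicate 1), and neither edgeR nor DESeq2 called any. Their summed level lay between 549.8 and 579.5 CPM in all 4 libraries, but single genes varied more. In the order of the libraries the 2 most abundant, Ctsb and Ctsz, were at 294.3, 179.1, 175.3 and 207.6 CPM and at 187.3, 305.9, 285.3 and 269.1 CPM. Ctsb, coding for the abundant lysosomal cathepsin B, had 18969 and 9735 counts with IL-3 against 8391 and 12050 without it (log2 fold change -0.31, SE 0.38, adjusted p = 0.958 in edgeR). Ctso had 1357 and 338 against 618 and 1066 counts (0.20, SE 0.67). Ctsc, coding for the activator of granule serine proteases, had 4856 and 4270 against 3545 and 3550 counts (-0.19, SE 0.30), and Ctsz had 12075 and 16634 against 13654 and 15620 (0.17, SE 0.37). The differences of these 4 genes were smaller than their standard errors. Cathepsins H and S, which stefins bind, were scarce, Ctsh with 0, 4, 4 and 8 counts and Ctss with 2, 7, 8 and 97 in the order of the libraries, and both failed the expression filter. Ctsl had 45, 8, 33 and 22.

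Genes whose levels followed the stefin A sum were sought among 12855 genes outside the cluster with a mean CPM of 1 or more, as the smallest root mean square difference of log2(CPM + 0.5) over the 4 libraries after each profile was centred on its own mean. The 4 libraries leave little room to order such profiles, so the list is a description. The nearest was S100a9 (difference 0.18), followed by Gm45837 (0.53), S100a8 (0.53), Ltf (0.73), Ak4 (0.84), Ly6g (0.89), Nanp (0.90) and Zc3h11a (0.98). S100a9 was nearer to the sum than any member was by itself, the members lying between 0.30 (Stfa2l1) and 2.08 (Stfa3). Members were not held to the mean CPM of 1. The 0.5 added to each CPM flattens profiles near 0, such as that of Stfa3 (0 and 0 CPM with IL-3 against 0.710 and 1.53 without it).

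S100a8 and S100a9 code for the subunits of calprotectin, a calcium-binding complex of granulocyte cytosol. S100a9 had 460 and 89 counts with IL-3 against 6735 and 21503 without it, and S100a8 had 74 and 21 against 3410 and 7167. Ltf, coding for lactoferrin of the secondary granules, had 406 and 197 against 2188 and 19613 counts. Ly6g, coding for a surface antigen of mouse granulocytes, had 164 and 44 against 836 and 2646. In each of these 4 genes both IL3- libraries lay above both IL3+ libraries, as in the stefin A genes. Abl1ko/IL3- replicate 2 also stood above replicate 1 in these 4 genes. They had been picked for a profile near the stefin A sum in the same 4 libraries. Sharing its group separation and replicate order thus largely follows from that choice and is no separate evidence. Among the 8 nearest genes, Nanp and Zc3h11a had Abl1ko/IL3- replicate 2 below replicate 1 in CPM. Ak4, coding for a mitochondrial adenylate kinase, had 943 and 137 against 5538 and 8670 counts. Gm45837, Nanp and Zc3h11a overlap other genes on the same strand, so their counts are uncertain.

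**Figure D5:**
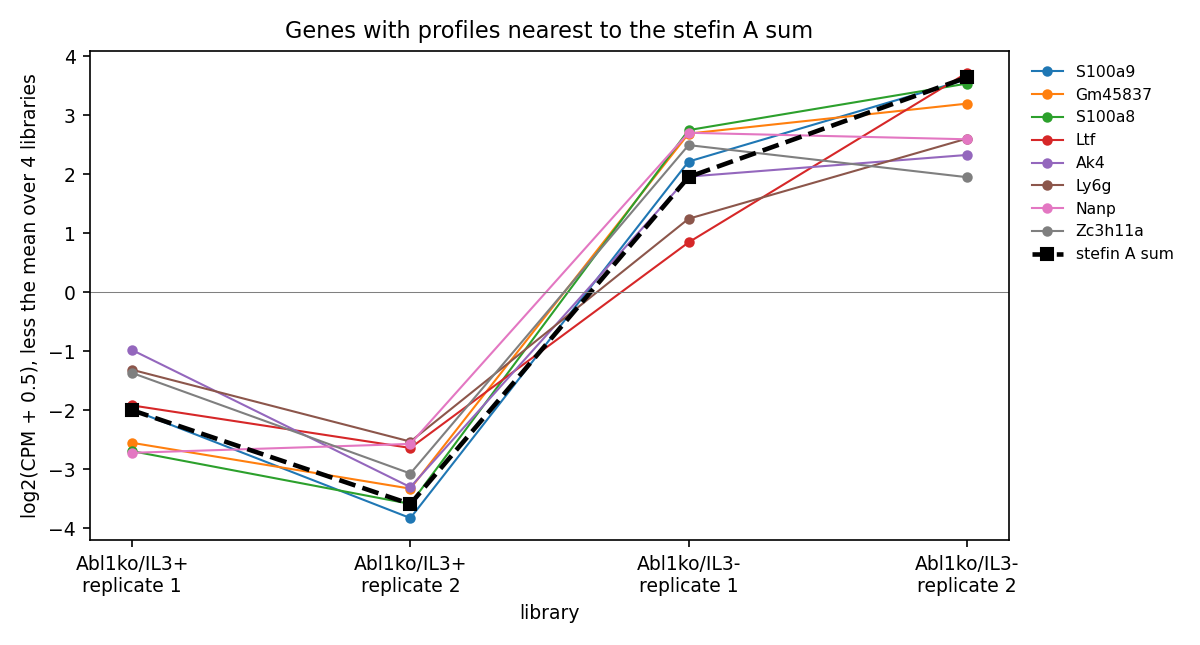
Centred log2(CPM + 0.5) of the stefin A sum (black squares, broken line) and of the 8 genes outside the cluster with the nearest profiles, in each of the 4 libraries, 1 point per library. Lines join points of a gene only to guide the eye, and the profile of S100a9 (difference 0.18) runs closest to the sum.

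Markers of maturing granulocytes moved with the stefin A genes in part. Of the 15 listed, 14 were in the table and 11 were tested. Of these, 7 had a higher and 4 a lower fitted level without IL-3 (median log2 fold change 2.31). edgeR called none, and DESeq2 called 5, all higher, against 0.671% of all genes tested called higher. Both IL3- libraries lay above both IL3+ libraries in Mmp8, Ly6g, Ltf, Camp, S100a8 and S100a9. The same held for 19.4% of all genes tested. Mmp8 (0, 0, 18 and 7 counts) failed the expression filter. Ly6g, Ltf, S100a8 and S100a9 had been picked above for profiles near the stefin A sum. The summed level of the list was 1347 and 604.4 CPM with IL-3 against 1146 and 5766 CPM without it, so its groups overlapped, unlike those of the stefin A sum. Ngp, coding for a granule protein, held the largest part of the sum in each library, with 44280 and 13074 counts with IL-3 against 29187 and 232341 without it. Cebpe, coding for a transcription factor of granule formation, had 25869 and 12269 against 8698 and 17934 counts, and Cxcr2, coding for a chemokine receptor of neutrophils, had 8922 and 3387 against 835 and 5169. Cd177 had the lowest fitted log2 fold change of the list (-2.93, SE 1.27), with 96 and 1108 counts with IL-3 against 51 and 104 without it, and its groups overlapped. Retnlg (0, 0, 4 and 0 counts) and Mmp8 were at 0 in both IL3+ libraries. The part of these markers in the stefin A result was not tested.

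The 10 myeloid progenitor markers summed to 3586 and 2832 CPM with IL-3 against 2307 and 1685 CPM without it, with Kit at 0, 4, 4 and 0 counts in the order of the libraries. Of these, 9 were tested, 2 with a higher fitted level (Myb and Il3ra) and 7 with a lower one. Neither edgeR nor DESeq2 called any. Mpo, coding for the myeloperoxidase of primary granules, had 121109 and 80294 counts against 43479 and 28978. In CPM these were 1879 and 1477 against 908.4 and 499.3, so much of the difference in the sum lay in this gene. Csf2rb, coding for the signalling chain of the IL-3 receptor, had 30196 and 16108 against 15487 and 3224, Cebpa 9356 and 2696 against 2521 and 3823, and Ctsg 6419 and 14294 against 5994 and 6105. In CPM the groups overlapped in Csf2rb, Cebpa and Ctsg, and of the whole list they were apart only in Mpo and Spi1, both lower without IL-3. The 8 macrophage markers in the table summed to 257.6 and 54.1 CPM with IL-3 against 76.8 and 178.6 CPM without it, and the 10 mast cell and basophil markers to 1267 and 251.9 against 408.4 and 433.9 CPM. Among the macrophage markers, C1qb of the complement had 1104 and 27 against 0 and 14 counts and was called lower by DESeq2 and not by edgeR, Adgre1 had 12931 and 2470 against 2502 and 6592, and Csf1r had 2501 and 366 against 1141 and 3711. Among the mast cell and basophil markers, Cpa3 had 20162 and 1400 against 2038 and 2722 counts, Prss34 44807 and 7305 against 12073 and 11717, Gata2 14230 and 1885 against 1135 and 7734, and Mcpt8 1225 and 2741 against 3386 and 1963. Of these 7 genes the groups overlapped in all but C1qb. The remaining pre-B markers of the naming rule were Cd79a, with 43 and 635 against 83 and 98 counts, and Vpreb1, with 57 and 145 against 157 and 81. Keratinocytes, the other known source of stefin A, were represented by Krt10 and Sfn alone of 10 markers, at 16.1 and 21.7 against 27.4 and 20.8 CPM together. In the macrophage, mast cell and keratinocyte lists the summed levels of the groups overlapped.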

How the data were processed

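RNA-seq of 32Dcl3-Abl1ko cells (2 libraries with IL-3, 2 without) was read from the tables that the authors deposited. The deposited counts are raw reads per gene, and the deposited FPKM values are the authors' own scaling of them by length and depth. The study's methods name Rsubread, featureCounts and GRCm38, whereas the submitters' processing notes name STAR, Cuffdiff and mm10. Versions, strand setting and pair handling are not given in the sources used here. Even numbers made up 57.7% to 59.9% of the counts from 1 to 20.

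Groups and replicate numbers came from the labels. Genes were fitted in R 4.3.3 by edgeR 4.0.16 (filterByExpr, TMM, quasi-likelihood F test, two-sided, Benjamini-Hochberg adjustment over 16535 genes, threshold 0.05), tested beforehand on simulated data. CPM are TMM-normalised, and standard errors derive from the fold change and the F statistic. With 2 libraries per group, p-values measure only the spread between these libraries. Alternatives were DESeq2 1.42.0, limma 3.58.1 on log2(FPKM + 1) and log2(FPKM + 0.1), library size only, other filters, the replicate block, and each library left out.

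The members and the gene lists were chosen with earlier results of these data known. Named genes were all members, the 4 genes per list with the largest fold change at a mean CPM of 1 or more, and the 8 nearest profiles. Others (Ctsh, Ctsk, Ctss, Ctsl, Gm15845, Rag1, Kit, Myb, Il3ra, Spi1, Ngp, Cebpe, Cxcr2, Camp, Cd177, Mmp8, Retnlg) were named after their values were seen. Coding sequences came from GENCODE M21 transcripts and promoters from RefSeq, and pairs were aligned with Biopython 1.88. No pair of libraries was alike within sampling noise by chi-square, so all 4 were kept.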

Additional observations from a re-analysis of the deposited data

How the results depend on the processing

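The summed stefin A level stayed higher without IL-3 under every alternative tried, with a log2 ratio of group means between 5.70 and 6.10 over 14 settings and between 4.70 and 6.98 when a library was left out. The fitted fold changes of the single members were positive in 92 of 92 refits, but 26 of them moved by more than the spread between duplicates. The widest ranges among the 6 members counted with IL-3 were those of BC117090 (3.03 to 10.96) and Gm5416 (4.35 to 11.73), whose highest values came without Abl1ko/IL3+ replicate 1, where no count with IL-3 was left and the fit rests on its prior count. The number of genes called did change. DESeq2 called 271 genes where edgeR called 0, and it called 1 of the other cystatins and 1 neighbour, 2010005H15Rik in both cases. Leaving out 1 library gave between 0 and 15 genes, the 15 without Abl1ko/IL3- replicate 1, 5 of them members, and the cause was not tested. The median of the protease list then ranged from -0.27 to 0.20 and that of the neighbours from -0.14 to 0.38. With the replicate block edgeR called 0 genes (548 at an unadjusted p under 0.05, against 978 without it). The labels give the groups the same numbers, but nothing ties them to a clone or day. Deviations of same-numbered libraries were weakly opposed (r = -0.194 over 16535 genes, described across genes). With 2 libraries per group the crossed value has to be the same with the other sign (0.194). The correlation thus cannot decide whether the numbers mark a pairing. The crossed pairing, added after the data were seen, called 0 genes (1136 unadjusted). No other alternative called a gene. With 2 libraries per group the spread between duplicates limits what can be called, and members with under 10 counts in the libraries with IL-3 have poorly known ratios.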
